A study of Mus musculus with 6 samples.

Results

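The transient receptor potential (TRP) cation channels are described here in B16-BL6, a mouse melanoma cell line selected for invasiveness, by RNA sequencing of polyadenylated RNA. The 10 genes are Trpv4, Trpv1, Trpv2, Trpm1, Trpm2, Trpm4, Trpm7, Trpc1, Mcoln2 and Mcoln3, out of 22535 gene rows and out of 28 TRP genes in the table. They were picked by name from a table whose differences between the groups were already known, Trpv4 for its large difference, so the values of these 10 genes are a description and carry no test. There were 3 libraries of cells labelled sgNDUFS4, which carry a guide RNA against Ndufs4, and 3 libraries of cells labelled sgControl, which carry a control guide. Ndufs4 encodes an accessory subunit of respiratory complex I. All cells were the same line, labelled melanoma, grown in DMEM with serum and pyruvate and harvested from subconfluent dishes. The series asks which transcripts differ between the lines, given that sgNDUFS4 cells are immunogenic. The labels do not say whether either cell line is a clone or a pool, or whether replicate libraries came from separate cultures, so a p-value here covers only library-to-library spread, possibly of technical origin.

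TRP channels are membrane proteins that let cations, in most cases calcium, pass when they are gated by stretch, swelling, temperature, lipids or internal messengers. The vanilloid (Trpv), melastatin (Trpm) and canonical (Trpc) groups act largely at the cell surface, and the mucolipins (Mcoln) act in endosomes and lysosomes. In pigment cells the melastatin Trpm1 is the best known member, since its mRNA was first found as one that is lost in aggressive melanoma.

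The libraries held 25817509, 23910781 and 25947374 reads counted in genes in sgNDUFS4 and 20090607, 23652793 and 22276307 in sgControl, recovered from the deposited CPM values, in which the gene counts of each library are scaled to the same total. Ndufs4 itself was at 14.99, 15.98 and 16.8 CPM in sgNDUFS4 and at 54.3, 55.0 and 52.4 CPM in sgControl. With limma on log2(CPM + 0.5), 52.0% of the 11063 genes tested passed an adjusted p of 0.05, with 31.8% of the genes tested higher and 20.3% lower in sgNDUFS4. With scaling by TMM, 48.9% of the calls were higher, against 61.1% as deposited. All 7 melanocyte-lineage markers were present, with a summed level of 14508 to 15533 CPM in sgNDUFS4 and 15409 to 15927 CPM in sgControl. Tyrp1 was the highest on average over all libraries, but Pmel lay above it in every sgNDUFS4 library. The T-cell markers Cd3e, Cd4 and Cd8a and the endothelial markers Pecam1, Cdh5 and Kdr had no read. Fibroblast markers summed to 41.4 to 46.1 CPM in sgNDUFS4 and 41.8 to 44.1 CPM in sgControl, mostly from Col1a2, with Dcn at 0. Keratinocyte markers, with Krt5 the highest on average over all libraries, stayed at or under 0.271 CPM in sgNDUFS4 and 0.180 CPM in sgControl. In bulk RNA, a different number of cells that express a gene and a different amount of RNA per cell cannot be told apart.

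Of the 10 channels, 8 had reads and 7 had a mean over the 6 libraries of 1 CPM or more, as the fit across all genes required. Of these 7, 4 were called higher (Trpv4, Trpv2, Trpm7 and Trpc1), 1 was called lower (Trpm1) and 2 were not called (Trpm4 and Mcoln2). Trpm7 was not called with TMM scaling, edgeR or DESeq2, and Trpc1 was not called without the mean-variance trend or without sgControl replicate 2 or 3. Trpm4 was called without sgControl replicate 3 and with a minimum of 5 CPM, and Mcoln2 without sgNDUFS4 replicate 2. Of all genes tested, 52.0% were called, 31.8% higher and 20.3% lower. The 3 sgNDUFS4 libraries all lay above the 3 sgControl libraries for Trpv4, Trpv2, Trpm7 and Mcoln2 and all below them for Trpm1. Among all genes tested the groups did not overlap for 57.2%, with sgNDUFS4 above for 35.0% and below for 22.2%. Nothing is read from these counts, since the choice of the genes used this contrast. The median log2 difference of the 7 was 0.31, and that of all genes tested was 0.06.

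**Figure D1:**
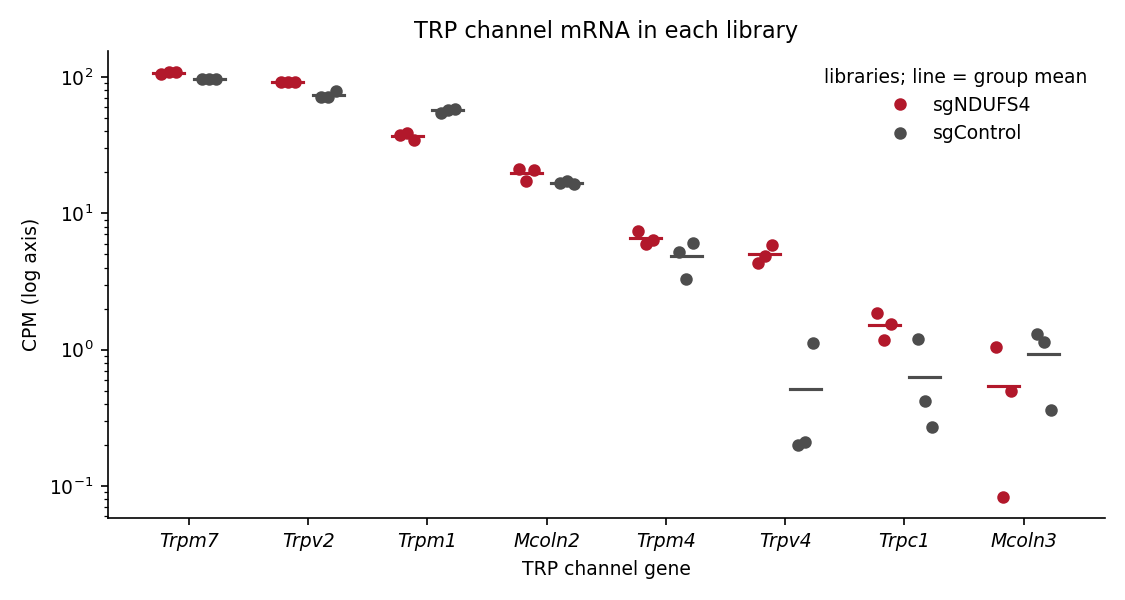
CPM of the 8 TRP channel genes that had reads, on a log axis, with 1 point per library and a line at the group mean (sgNDUFS4 left, sgControl right of each pair). Trpv4 is the gene with the widest gap between the groups, and its sgControl libraries are split, 2 at about 0.2 CPM and 1 at 1.12 CPM.

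The mRNA of Trpv4, a calcium channel opened by swelling, shear, warmth and lipid messengers, was barely detected in sgControl and clearly detected in sgNDUFS4. It was at 4.34, 4.85 and 5.86 CPM in sgNDUFS4 (112, 116 and 152 reads) and at 0.199, 0.211 and 1.12 CPM in sgControl (4, 5 and 25 reads). Every sgNDUFS4 library lay above every sgControl library. The means were 5.02 ± 0.773 CPM in sgNDUFS4 and 0.511 ± 0.529 CPM in sgControl (SD, n = 3 each), a ratio of 9.82 and a log2 difference of 2.56 (SE 0.29). Outside the alternative fits, log2 differences are of log2(CPM + 0.5), so the added 0.5 CPM shrinks those of genes as low as Trpv4. Some alternative fits add another value, and edgeR and DESeq2 model the recovered reads. The positive difference of Trpv4 ranked 4 by size among the 11063 genes tested. The rank follows from the choice of Trpv4 for its large difference and is no support for it. Trpv4 passed the minimum mean of 1 CPM through its sgNDUFS4 libraries, since its sgControl mean lay below that.

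The sgControl libraries differed among themselves for Trpv4. The exact Poisson 95% interval, which covers counting error only, was 0.726 to 1.66 CPM in sgControl replicate 3, and 0.0542 to 0.510 and 0.0686 to 0.493 CPM in replicates 1 and 2. The level in replicate 3 was 5.47 times the mean of the other two. The intervals of the sgNDUFS4 libraries began at 3.57 CPM, above all of these. Leaving out sgControl replicate 3 raised the ratio of means to 24.4, and against that library alone the ratio was 4.47. In the 20 other genes called with a log2 difference of at least 2, the same ratio of replicate 3 to the other sgControl libraries had a median of 1.03, with a range of 0 to 10.2. The raised value of replicate 3 was not shared by most of these genes.

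Trpv4 (ENSMUSG00000014158.12) lies on the minus strand of chromosome 5, 114622152 to 114658421 (GRCm38), and none of its exons overlaps another annotated gene. Its RefSeq promoter window, chr5:114658372-114658671 (minus strand, GRCm38.p6, 250 bases before to 50 bases after the start), is shown because Trpv4 has the largest log2 difference of the TRP genes. The capitals mark GGGCGG, the GC box, searched on both strands.
Trpv4: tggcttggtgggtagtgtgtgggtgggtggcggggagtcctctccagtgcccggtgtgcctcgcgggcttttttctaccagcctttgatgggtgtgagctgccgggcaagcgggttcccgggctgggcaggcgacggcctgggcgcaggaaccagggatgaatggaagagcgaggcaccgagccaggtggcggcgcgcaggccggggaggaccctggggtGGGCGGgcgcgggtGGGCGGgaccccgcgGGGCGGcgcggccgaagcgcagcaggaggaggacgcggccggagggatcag
The window holds 3 such matches, beginning 30, 16 and 1 bases before the start, and 35.7% of the 32851 RefSeq promoter windows of this length hold at least 1. It has 73.0% G and C and 30 CpG pairs, against medians of 52.7% and 7 in all windows. A match is a description of the letters only.

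The genes around Trpv4 did not share its difference. Of the 10 nearest tested genes, 5 on each side and within 369.3 kb, limma called 1 higher and 2 lower. Among all genes tested, 31.8% were called higher and 20.3% lower. The log2 differences of these 10 genes lay between -0.22 and 0.34, with a median of 0.02. The nearest gene on the side beyond its start was Gltp, a glycolipid transfer protein, at 31.3 ± 0.522 CPM in sgNDUFS4 and 36.6 ± 2.29 CPM in sgControl (SD, n = 3 each, limma adjusted p = 0.013). Without sgControl replicate 3 its adjusted p was 0.074. The nearest on the other side was Mvk, mevalonate kinase, at 28.1 ± 4.02 CPM in sgNDUFS4 and 27.97 ± 1.08 CPM in sgControl (SD, n = 3 each, limma adjusted p = 0.98). Kctd10 and Ankrd13a, named after their values were seen, made up the rest of the calls, with log2 differences of 0.34 and -0.15.

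**Figure D2:**
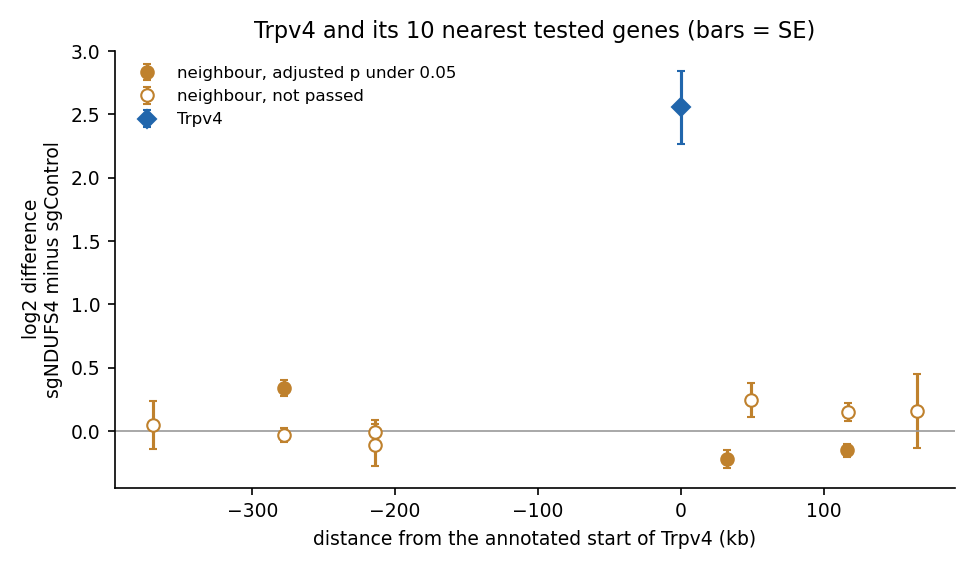
Log2 difference (sgNDUFS4 minus sgControl, bars are SE) of Trpv4 and its 10 nearest tested genes against the distance of each gene's annotated start from that of Trpv4 in kb. Filled points passed an adjusted p of 0.05 and open points did not. Trpv4 stands at 2.56 while every neighbour lies between -0.22 and 0.34.

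Of the other vanilloid channels, Trpv2 was abundant and Trpv1 was not detected. Trpv2, which in rodents responds to noxious heat, stretch and cannabinoids, was at 91.9, 91.3 and 91.4 CPM in sgNDUFS4 and at 71.3, 71.1 and 78.2 CPM in sgControl. The sgNDUFS4 libraries were tightly grouped and all lay above the sgControl libraries. The means were 91.5 ± 0.322 CPM in sgNDUFS4 and 73.6 ± 4.06 CPM in sgControl (SD, n = 3 each), a ratio of 1.24 and a log2 difference of 0.31 (SE 0.05). Over 15 alternative fits this difference ranged from 0.25 to 0.36. Trpv1, the capsaicin and heat receptor of sensory neurons, had 0 reads in every library. A count of 0 allows up to 3 reads, which is between 0.116 and 0.149 CPM in these libraries. Of the sensory-neuron markers, Scn9a, Scn10a and Calca had no read either, while Prph, the peripheral neurofilament peripherin, was at 0.155, 0.335 and 0.809 CPM in sgNDUFS4 and at 1.79, 2.71 and 1.98 CPM in sgControl. Trpv2 and Trpv1 both lie on chromosome 11, at 62574486 to 62600515 and at 73234292 to 73261242.

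Trpm1 was lower in every sgNDUFS4 library than in any sgControl library. It was at 37.6, 38.8 and 34.6 CPM in sgNDUFS4 and at 54.7, 57.5 and 58.5 CPM in sgControl. The spread within each group was small beside the gap between them. The means were 37.0 ± 2.19 CPM in sgNDUFS4 and 56.9 ± 2.01 CPM in sgControl (SD, n = 3 each), a ratio of 0.651 and a log2 difference of -0.61 (SE 0.06), and over 15 alternative fits the difference ranged from -0.68 to -0.57. Trpm1 is the founding melastatin, and outside pigment cells it is known as the channel through which ON-bipolar cells of the retina answer light. Its share of all reads in TRP genes was 11.4%, 11.9% and 10.4% in sgNDUFS4 and 18.5%, 19.3% and 19.1% in sgControl. Of the 7 melanocyte-lineage markers, 5 (Sox10, Dct, Mlana, Tyrp1 and Tyr) were lower in every sgNDUFS4 library than in any sgControl library, and 2 (Pmel and Mitf) were higher. Among all genes tested, 22.2% were lower and 35.0% higher in this way. Tyr, the tyrosinase of melanin synthesis, was at 3.602, 2.89 and 2.81 CPM in sgNDUFS4 and at 30.9, 31.9 and 33.98 CPM in sgControl. Pmel, the fibril protein of melanosomes, was at 5715, 5597 and 5208 CPM in sgNDUFS4 and at 4391, 4262 and 4420.0 CPM in sgControl. The part of the lineage markers in the Trpm1 difference was not tested.

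Trpm1 (chromosome 7, 64153835 to 64269775, plus strand) is also the host gene of a miRNA. The mature miR-211-5p lies within it on the same strand, at chr7:64205831-64205852 (GRCm38.p6), and shares its seed with miR-204-5p, which lies within another TRP gene, Trpm3, at chr19:22750610-22750631. Both are shown with the seed, bases 2 to 8, in capitals (RefSeq).
mmu-miR-211-5p: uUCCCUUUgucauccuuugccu
mmu-miR-204-5p: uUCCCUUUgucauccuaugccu
The 22-base mature forms differ at 1 position outside the seed. Neither miRNA has a row in the table, so their levels were not analysed here. The second host, Trpm3, had 0 reads in each sgNDUFS4 library and 0, 10 and 1 reads in the sgControl libraries.

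The upstream RefSeq promoter window of Trpm1, chr7:64153585-64153884 (plus strand, GRCm38.p6), is shown because Trpm1 is a textbook target of MITF, the master transcription factor of melanocytes. MITF and its relatives TFEB and TFE3 recognise CACGTG and CATGTG, which were searched on both strands and are in capitals.
Trpm1: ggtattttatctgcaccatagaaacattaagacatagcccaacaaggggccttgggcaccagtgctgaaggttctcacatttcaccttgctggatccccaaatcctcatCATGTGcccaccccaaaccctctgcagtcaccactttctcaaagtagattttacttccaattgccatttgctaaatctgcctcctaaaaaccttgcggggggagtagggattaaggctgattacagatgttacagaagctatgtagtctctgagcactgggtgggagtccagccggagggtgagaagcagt
This window holds 1 CATGTG, beginning 141 bases before the start. Of all promoter windows 14.2% hold CATGTG and 7.15% hold CACGTG. Among the 10 channels, 9 have a window, and CACGTG is present for 3 of them (Trpm1 at its downstream start, Trpm7 and Mcoln2) and CATGTG for 2 (Trpm1 and Trpm2).

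Of the other melastatins that were picked, Trpm7 and Trpm4 differed less than Trpm1, and Trpm2 was not detected. Trpm7, a channel for magnesium, zinc and calcium fused to a protein kinase, was at 105.2, 108.2 and 108.7 CPM in sgNDUFS4 and at 96.3, 97.3 and 96.8 CPM in sgControl. All sgNDUFS4 libraries were above all sgControl libraries by a narrow margin. The means were 107.4 ± 1.88 CPM in sgNDUFS4 and 96.8 ± 0.510 CPM in sgControl (SD, n = 3 each), a ratio of 1.11 and a log2 difference of 0.15 (SE 0.04). With TMM scaling, edgeR or DESeq2 the difference was 0.09.

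Trpm4, a calcium-activated channel that carries sodium and potassium but not calcium, was at 7.36, 5.94 and 6.32 CPM in sgNDUFS4 and at 5.23, 3.30 and 6.11 CPM in sgControl. The groups overlapped, with sgControl replicate 2 the lowest of all. The log2 difference was 0.42 (SE 0.18). Without sgControl replicate 2 it was 0.19, and without sgControl replicate 3 it was 0.59. Trpm2, a channel opened by ADP-ribose and sensitive to oxidants, had 0 reads in every library.

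Trpc1, a canonical channel that assembles with other subunits and is studied in store-operated calcium entry, was close to the limit of the measurement. It was at 1.86, 1.17 and 1.54 CPM in sgNDUFS4 (48, 28 and 40 reads) and at 1.19, 0.423 and 0.269 CPM in sgControl (24, 10 and 6 reads). The groups overlapped, since sgControl replicate 1 lay just above sgNDUFS4 replicate 2. The means were 1.52 ± 0.344 CPM in sgNDUFS4 and 0.629 ± 0.496 CPM in sgControl (SD, n = 3 each), and the log2 difference was 0.91 (SE 0.32). Without sgControl replicate 2 the difference was 0.81, and without sgControl replicate 3 it was 0.68. Without sgNDUFS4 replicate 1 or 3 the gene fell below the minimum level and was not fitted. The 10 nearest tested genes of Trpc1 on chromosome 9 reach as far as 3474.8 kb. Of these, 5 were called higher and 0 lower, with a median log2 difference of 0.23, while 31.8% of all genes tested were higher and 20.3% lower, with a median of 0.06. These neighbours are the extreme among the 10 channels, since no other channel had as many called higher. Over the neighbours of all channels the median was 0.05.

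The mucolipins Mcoln2 and Mcoln3 are neighbours on chromosome 3, at 146149833 to 146195513 and at 146117450 to 146141806, but differed widely in level. Mcoln2, a channel of recycling endosomes, was at 21.03, 17.4 and 20.7 CPM in sgNDUFS4 and at 16.7, 17.2 and 16.4 CPM in sgControl. The groups touched but did not overlap, because sgNDUFS4 replicate 2 lay just above the sgControl libraries. The log2 difference was 0.22 (SE 0.10), and without sgNDUFS4 replicate 2 it was 0.31.

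Mcoln3, the mucolipin whose mutation causes hearing loss and coat dilution in varitint-waddler mice, was at 1.05, 0.0836 and 0.501 CPM in sgNDUFS4 (27, 2 and 13 reads) and at 1.29, 1.14 and 0.359 CPM in sgControl (26, 27 and 8 reads). The libraries of a group differed among themselves by more than the groups did, and the mean of all 6 was below the minimum for the fit. Of the macrophage markers, Lyz2 had the highest mean over all libraries. It was at 5.85, 4.52 and 2.66 CPM in sgNDUFS4 and at 5.03, 2.79 and 2.65 CPM in sgControl. Csf1r, picked after its values were seen, was at 0.852, 0.251 and 0.308 CPM in sgNDUFS4 and at 1.79, 1.78 and 0.449 CPM in sgControl. The other macrophage markers did not all share this order of libraries. Adgre1 was at 2.25, 1.21 and 0.308 CPM in sgNDUFS4 and at 1.24, 0.761 and 1.62 CPM in sgControl. Cd68 was at 4.18, 1.92 and 1.81 CPM in sgNDUFS4 and at 5.62, 5.71 and 3.19 CPM in sgControl. Ptprc was at 0.813, 0.125 and 0 CPM in sgNDUFS4 and at 0.199, 0.634 and 0.0449 CPM in sgControl. All 5 macrophage markers were detected, with summed levels of 5.09 to 13.9 CPM in sgNDUFS4 and 7.95 to 13.9 CPM in sgControl. Their part in the low TRP transcripts was not tested.

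Levels of different genes were set side by side per length, as mean CPM per kb of the longest protein-coding transcript in GENCODE M21. In sgNDUFS4 the order was Trpv2 at 31.5 CPM per kb, Mcoln1 at 15.5, Trpm7 at 15.1, Mcoln2 at 7.82, Trpm1 at 6.48, Pkd2 at 5.20, Trpv4 at 1.55, Trpm4 at 1.54 and Trpc1 at 0.334 CPM per kb, with Trpm5, Mcoln3, Trpc2, Pkd2l2 and Trpv3 below. Neighbours in this order could not be separated for Mcoln1 and Trpm7, for Trpv4 and Trpm4, nor the genes from Trpc1 down, since their libraries overlapped. In sgControl the order was Trpv2 at 25.3 CPM per kb, Trpm7 at 13.6, Trpm1 at 9.96, Mcoln1 at 9.24, Mcoln2 at 6.66, Pkd2 at 5.26 and Trpm4 at 1.15 CPM per kb, each apart from the next. Below them Mcoln3, Trpc2, Trpv4, Trpc1, Trpv3, Trpm5 and Pkd2l2 lay between 0.0903 and 0.311 CPM per kb and overlapped with their neighbours in the order. Trpv4 thus stood beside Trpm4 in sgNDUFS4 and among the barely detected channels in sgControl, and Trpm1 was the third in sgControl and the fifth in sgNDUFS4.

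**Figure D3:**
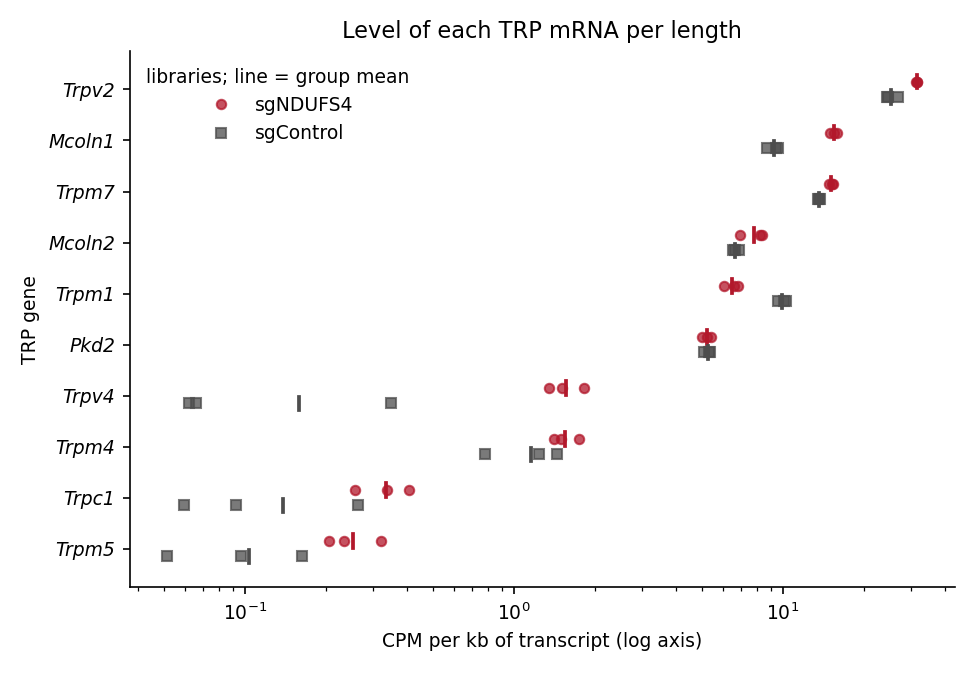
CPM per kb of the longest protein-coding transcript, on a log axis, for the TRP genes that reached 1 CPM on average in either group, 10 in all, with a point per library and a line at the group mean (sgNDUFS4 above sgControl for each gene). Trpv2 is at the top in both groups, at 31.5 in sgNDUFS4 and 25.3 in sgControl, and Trpv4 joins Trpm4 in sgNDUFS4 only.

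The other 18 TRP genes are the rest of the family, left after the 10 had been picked. Of these, 11 had no read in any library (among them Trpv5, Trpv6, Trpm6, Trpm8, Trpa1 and Pkd2l1), 5 had reads but less than 1 CPM on average, and 2 were tested. Mcoln1, the calcium-releasing channel of lysosomes, rose to 32.1, 30.9 and 32.9 CPM in sgNDUFS4, against 19.5, 19.7 and 18.0 CPM in sgControl. The groups were far apart, with means of 31.9 ± 1.01 CPM in sgNDUFS4 and 19.1 ± 0.910 CPM in sgControl (SD, n = 3 each), a log2 difference of 0.73 (SE 0.08, limma adjusted p = 4.4e-08). It was called in all 15 alternative fits, with a difference of 0.67 to 0.75. Pkd2, the polycystin-2 channel of cilia and endoplasmic reticulum, averaged 27.2 ± 1.10 CPM in sgNDUFS4 and 27.4 ± 0.760 CPM in sgControl (SD, n = 3 each, limma adjusted p = 0.89). The TRP genes tested outside the 10 were therefore 1 that rose and 1 that did not pass, too few to set against the 31.8% and 20.3% of all genes.

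Mcoln1 (chromosome 8, 3500457 to 3515232) is a known member of the lysosomal gene network of TFEB. Its RefSeq promoter window, chr8:3500269-3500568 (plus strand, GRCm38.p6), is shown beside that of Trpm1, with CACGTG and CATGTG in capitals.
Mcoln1: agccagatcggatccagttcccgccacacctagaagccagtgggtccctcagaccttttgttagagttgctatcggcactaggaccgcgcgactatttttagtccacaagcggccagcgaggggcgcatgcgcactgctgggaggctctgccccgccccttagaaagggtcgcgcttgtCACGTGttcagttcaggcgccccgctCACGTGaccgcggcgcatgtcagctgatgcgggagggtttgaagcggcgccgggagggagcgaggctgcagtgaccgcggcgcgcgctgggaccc
It holds 2 CACGTG, beginning 71 and 45 bases before the start. These matches describe the letters only, and their part in the differences of Mcoln1 and Trpm1 was not tested.

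The 5 TRP genes with reads below 1 CPM were Trpv3, Trpm3, Trpm5, Trpc2 and Pkd2l2. Trpm5, the taste-cell channel, had 34, 23 and 22 reads in sgNDUFS4 and 8, 5 and 15 reads in sgControl. Trpc2, a pheromone-sensing channel in mice, had 4, 4 and 10 reads in sgNDUFS4 and 22, 15 and 13 reads in sgControl. Neither pair of groups overlapped. In the fit with no filter on low values Trpm5 was called higher (limma adjusted p = 0.014) and Trpc2 lower (limma adjusted p = 0.0087). Trpc2 shares 2803 exon bases with the readthrough gene Xntrpc and Trpm5 shares 220 with Tssc4, and the libraries kept no strand, so these reads are uncertain. Trpv3 had 12, 1 and 1 reads in sgNDUFS4 and 13, 27 and 2 reads in sgControl, with overlapping groups.

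**Figure D4:**
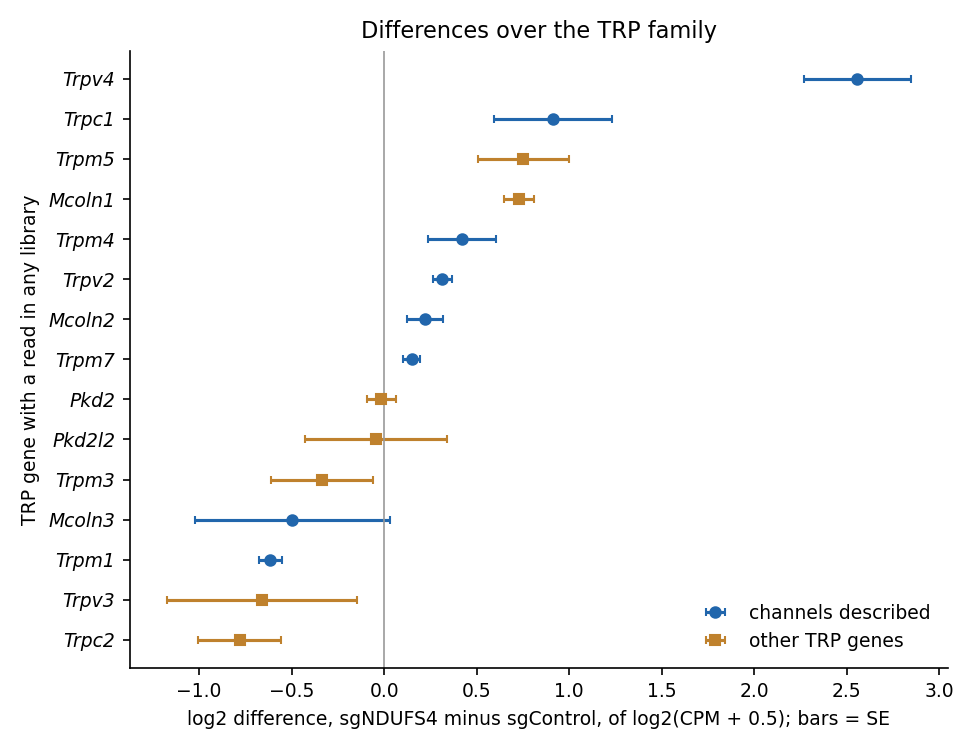
Log2 difference (sgNDUFS4 minus sgControl, on the log2(CPM + 0.5) scale, bars are SE) of the 15 TRP genes with a read in any library. Circles are the 8 of the 10 channels that had reads and squares are 7 other TRP genes. Trpv4 stands at 2.56, Mcoln1 at 0.73 and Trpm1 at -0.61, and the value of Trpm3, which has no read in sgNDUFS4, depends on the 0.5 CPM added.

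Genes that act with TRP channels moved in both directions. Of 22 partners and regulators, 16 were tested, and limma called 4 higher and 5 lower, with a median log2 difference of -0.04 against 0.06 for all genes tested. Among all genes tested, 31.8% were higher and 20.3% lower. With TMM scaling, edgeR or DESeq2 the list had 4 higher and 8 lower. These settings also moved the calls over all 11063 genes tested. Higher calls were 2744, 2723 and 2603 and lower calls 2862, 2860 and 2767, in that order. Cav1, the caveolin that holds Trpc1 and other channels in caveolae, rose to 8.62 ± 1.56 CPM in sgNDUFS4, against 2.86 ± 1.30 CPM in sgControl (SD, n = 3 each, limma adjusted p = 4.2e-06). Homer3, of the Homer scaffolds that bind Trpc channels, rose by 0.69 on the log2 scale (limma adjusted p = 1.4e-09). Src, a tyrosine kinase that phosphorylates Trpv4, fell to 43.0 ± 1.72 CPM in sgNDUFS4, against 63.2 ± 2.004 CPM in sgControl (SD, n = 3 each, limma adjusted p = 2.2e-08). Calm3, a gene of the calcium sensor calmodulin, and Nedd4l, a ubiquitin ligase of channels, fell by 0.21 and 0.24 on that scale. Os9, which binds Trpv4 in the endoplasmic reticulum, was at 265.2 ± 6.53 CPM in sgNDUFS4 and 269.0 ± 9.68 CPM in sgControl (SD, n = 3 each, limma adjusted p = 0.66). Calm2, another calmodulin gene, had a log2 difference of -0.03 (limma adjusted p = 0.47), and with TMM scaling it was -0.09 and was called (limma adjusted p = 0.021).

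Other channels of calcium entry and release were also mixed. Of 25 listed, 15 were tested and limma called 7 higher and 5 lower, with a median log2 difference of 0.01, where 52.0% of all genes tested were called. Piezo1, the stretch-gated channel, rose to 346.7 ± 1.86 CPM in sgNDUFS4, against 296.0 ± 11.8 CPM in sgControl (SD, n = 3 each, limma adjusted p = 3.9e-06). The inositol trisphosphate receptors Itpr1 and Itpr2, which release calcium from the endoplasmic reticulum, rose by 0.23 and 0.56 on the log2 scale. Cacna1a, a voltage-gated channel pore, fell to 2.88 ± 0.327 CPM in sgNDUFS4, against 7.20 ± 0.421 CPM in sgControl (SD, n = 3 each, limma adjusted p = 1.8e-06), and Tpcn1, a channel of endolysosomes, fell by 0.31 on the log2 scale. Stim2, a calcium sensor of the store, and Orai3, a store-operated pore, had log2 differences of -0.01 and -0.13 (limma adjusted p = 0.95 and 0.41).

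Of 26 pumps, exchangers and uniporter genes, 13 were tested and 4 were called higher and 2 lower, with a median log2 difference of 0.10, beside 31.8% higher and 20.3% lower among all genes tested. Atp2b1, a calcium pump of the plasma membrane, rose to 149.5 ± 5.15 CPM in sgNDUFS4, against 122.9 ± 3.01 CPM in sgControl (SD, n = 3 each, limma adjusted p = 4.3e-06). Its relative Atp2b4 fell to 0, 0 and 0.270 CPM in sgNDUFS4, against 1.94, 1.44 and 3.01 CPM in sgControl (limma adjusted p = 6.4e-06). Atp2c1, a calcium pump of the Golgi, and Slc24a5, an exchanger needed for pigmentation, had log2 differences of 0.30 and 0.18 and were called higher, while Letm1, of the inner mitochondrial membrane, fell by 0.21 on the log2 scale. Atp2a2, the calcium pump of the endoplasmic reticulum, and Smdt1, a subunit of the mitochondrial uniporter, had log2 differences of 0.02 and -0.05 (limma adjusted p = 0.50 and 0.40), and that of Atp2a2 was -0.04 with TMM scaling.

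Of 24 genes of calcineurin, NFAT and calmodulin kinases, which act downstream of calcium, 17 were tested and 6 were called higher and 5 lower, with a median log2 difference of 0.09, beside the same shares over all genes, 31.8% and 20.3%. With TMM scaling it had 5 higher and 6 lower, and with DESeq2 4 higher and 5 lower. Over all 11063 genes tested, TMM scaling gave 2744 higher and 2862 lower, and DESeq2 gave 2603 higher and 2767 lower. Nfat5, a factor of the osmotic stress response, rose to 35.9 ± 2.45 CPM in sgNDUFS4, against 24.5 ± 2.40 CPM in sgControl (SD, n = 3 each, limma adjusted p = 5.5e-06). The calcineurin catalytic subunits Ppp3ca and Ppp3cb and the kinase subunit Camk2g rose by 0.33, 0.25 and 0.50 on the log2 scale. Nfatc2, a calcineurin-dependent factor, fell to 9.72 ± 0.636 CPM in sgNDUFS4, against 15.3 ± 1.97 CPM in sgControl (SD, n = 3 each, limma adjusted p = 0.00010). Nfatc3 and Camk2d had log2 differences of 0.09 and -0.07 (limma adjusted p = 0.20 and 0.41). Without sgControl replicate 1 or 2 this list had 7 calls in place of 11.

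**Figure D5:**
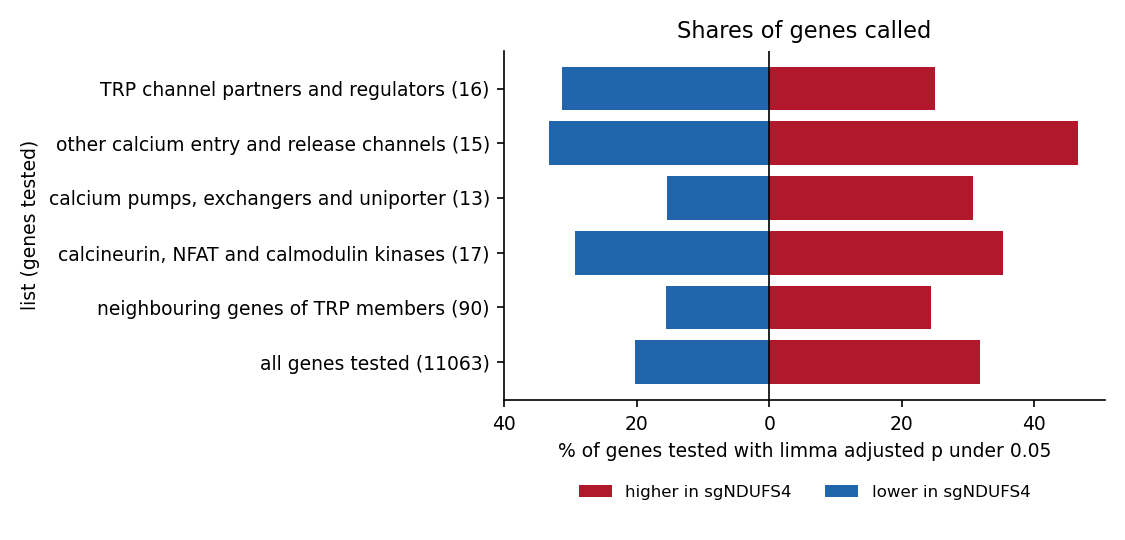
Share of the genes tested in each list that passed a limma adjusted p of 0.05, higher in sgNDUFS4 to the right and lower to the left, with the number tested in parentheses. The bottom row gives all 11063 genes tested, of which 31.8% were higher and 20.3% lower, and each row drawn has calls in both directions.

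Over all 10 channels, the 90 nearest tested genes held 22 called higher and 14 called lower, with a median log2 difference of 0.05, where 31.8% of all genes tested were higher and 20.3% lower. With TMM scaling or edgeR these neighbours had 14 higher and 16 lower, and with DESeq2 13 higher and 15 lower. Over all 11063 genes tested, the higher calls with TMM scaling, edgeR and DESeq2 were 2744, 2723 and 2603. The lower calls were 2862, 2860 and 2767. The only neighbour called with at least a 2-fold difference was Oca2, a melanosomal transporter on chromosome 7 at 56239760 to 56536518. It was counted among the neighbours of Trpm1, but its annotated start is far off, at -7914.1 kb from that of Trpm1. Oca2 fell to 0.324 ± 0.248 CPM in sgNDUFS4, against 2.55 ± 0.796 CPM in sgControl (SD, n = 3 each, limma adjusted p = 1.2e-05).

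The genes whose pattern over the 6 libraries was most like that of Trpv4, by Pearson correlation of log2(CPM + 0.5) among the genes tested, were Gstm5, Morf4l2, Cd302, Ptprm and Ctso, with r of 0.999, 0.998, 0.998, 0.997 and 0.997. These r values describe 2 separate groups of libraries and mostly follow the difference between them. In each of the 5 genes sgControl replicate 3 was the highest of the sgControl libraries, as it was for Trpv4. Their choice by correlation with Trpv4 over the same libraries favours this, so nothing is read from it. The sizes differed, from a ratio of group means of 2.91 for Ctso, a lysosomal cysteine protease, and 1.72 for Gstm5, a glutathione transferase, to 1.09 for Morf4l2, a chromatin protein whose call was lost with TMM scaling (limma adjusted p = 0.11).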

How the data were processed

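Per the labels' protocols, RNA was prepared with TRIzol and sequenced as paired reads without strand. Per the submitters' processing notes, HISAT2 and the build GRCm38 were used. The counting tool, annotation and filters were not given in the sources used here, and replicates were deposited separately. The table deposited by the authors gives CPM per gene and library. Values above 0 were whole multiples of the smallest value in 99.98% to 100% of cases (tolerance 0.01), so reads were recovered from them, with 20090607 to 25947374 per library. Intervals and the floor of 3 reads cover counting error only.

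limma 3.58.1 (R 4.3.3) with a mean-variance trend was fitted to log2(CPM + 0.5). Genes entered it if their 6 libraries averaged 1 CPM or more, which left 11063. Two-sided p-values were adjusted by Benjamini-Hochberg across that whole table and called under 0.05. The fitting was checked on simulated reads. Alternatives were other pseudocounts and filters, TMM, no trend, a replicate block, each library left out, and edgeR 4.0.16 and DESeq2 1.42.0 on the recovered reads. Levels per kb were added after seeing the data.

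The channels and lists were chosen with earlier results of these data known. Named genes follow a rule: all TRP genes with 1 CPM or a call, up to 5 called members of each list with the smallest p and up to 2 that were not called, the nearest neighbours of Trpv4, neighbours called with a 2-fold difference, the 5 genes most like Trpv4, and the highest marker of each cell type. Other markers given with values or as moving with the groups, Kctd10, Ankrd13a and TRP genes under 1 CPM were named after their values were seen. Gene positions and transcript lengths are from GENCODE M21 (GRCm38), and sequences from RefSeq (GRCm38.p6). No library had a read in 9022 rows, and 50 rows with repeated symbols were kept as separate rows. SE of genes below the filter come from the SDs of the groups.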

Additional observations from a re-analysis of the deposited data

How the results depend on the processing

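The number of genes called was 5755 and lay between 4924 and 5941 in the alternative fits, with 5583 calls by edgeR and 5370 by DESeq2. Of the 10 channels, 5 were called, 4 with TMM scaling, edgeR, DESeq2, no trend or a minimum of 5 CPM, which leaves out Trpv4 and Trpc1, and between 4 and 6 with a library left out. The other TRP channel genes had 1 call in every fit but the one with no filter, which had 3. The genes of calcineurin, NFAT and calmodulin kinases had between 7 and 10 calls with a library left out, against 11. The Trpv4 difference ranged from 2.04 with a pseudocount of 1 CPM to 3.39 with 0.1 CPM, and it was 3.21 with edgeR. Over 39 named genes outside the 10 channels, 564 alternative values kept direction and call, 4 lost the call (Gltp and Morf4l2), 3 gained it (Calm2) and 10 changed sign, all of 5 genes that were not called in either fit. Atp2a2 was at -0.036 with TMM scaling, edgeR and DESeq2. With a library left out, Pkd2 ranged from -0.042 to 0.016, Os9 from -0.042 to 0.0080, Stim2 from -0.076 to 0.050 and Mvk from -0.075 to 0.12. Whether the replicate numbers pair the libraries could not be decided. Same-numbered libraries had correlations of deviations from the group means of 0.056, 0.012 and 0.097 over 11063 genes, which are small. Each sgNDUFS4 library had its highest with its own number for replicates 1 and 3 but not 2. Read from the other group, each sgControl library had its highest with its own number, for replicate 2 at 0.012 against 0.010. With the replicate block there were 5941 calls, 6 among the 10 channels (Trpm4 is added), 1 among the other TRP genes, 10 among partners, 12 among calcium channels, 6 among pumps, 12 among calcineurin genes and 36 among neighbours. Transcripts under about 1 CPM (Trpc1, Mcoln3 and Trpv4 in sgControl) rest on few reads, and with 3 libraries a group small differences such as that of Trpm7 depend on the scaling.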

Other observations

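The 4 genes of the MITF and TFE family of transcription factors, chosen after their values were seen, did not move together. Mitf averaged 140.0 ± 5.47 CPM in sgNDUFS4 and 125.6 ± 5.01 CPM in sgControl (SD, n = 3 each, limma adjusted p = 0.0047). Its log2 difference of 0.16 was small, near the 0.15 of Trpm7, whose call was lost with TMM scaling, edgeR and DESeq2. The values of Mitf in those fits are not given here. Tfe3 fell to 27.8 ± 0.912 CPM in sgNDUFS4, against 55.5 ± 1.96 CPM in sgControl (SD, n = 3 each, limma adjusted p = 3.0e-12). Tfeb fell to 16.3 ± 0.193 CPM in sgNDUFS4, against 20.2 ± 0.608 CPM in sgControl (SD, n = 3 each, limma adjusted p = 0.0082). Tfec had fewer than 0.5 CPM in every library.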
